A study of Homo sapiens with 16 samples.

Results

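The 7 genes described here are NEFL, NEFM, LIN28B, EYA1, GAL, PAX2 and PEG10, 7 of the 16324 genes listed in each of the authors' deposited tables. They are genes that human embryonic kidney lines such as HEK293 are known to express, some of them neuronal. They were chosen by their names, and the choice was made with their measured abundance in these tables known. Abundance and every other value of the same tables are therefore given as a description, with no test and no support drawn from them. All 7 have a row in both tables, so each passed whatever filter on low counts the authors used, which is not given in the sources used here.

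The series is a RIP-seq study, in which RNA bound to a tagged protein is pulled down and sequenced beside input RNA. The cells are labelled UM-SCC-1, an established head and neck squamous carcinoma line, and all 6 groups carry a lentiviral construct with a Strep tag, selected with puromycin. Vec, the tag alone, has 3 pull-down (StrepTactin-XT) and 3 input libraries, ALKBH5, an m6A demethylase, has 3 and 3, and RBM33, an RNA-binding protein, has 2 and 2. The files used here are 1 table of the authors' own comparison for each bait, both named siCtrl, a treatment that no library title states. Each gene has an F statistic, p-values, an average log2 CPM (read counts scaled to a common library size and averaged over the fit's libraries) and a log2 fold change, but no value per library. Depth per library is unknown here, and neither the groups compared nor the direction of the ratio is stated, so values are called positive or negative only. Overexpressed bait is in the labelled cells by design, and the labels do not tell whether replicates were separate cultures. The p-values may therefore measure only technical spread.

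NEFL and NEFM encode the light and medium neurofilament proteins, which assemble with a heavy chain into the intermediate filaments that set the calibre of axons. LIN28B encodes an RNA-binding protein of embryonic and some tumour cells that blocks maturation of let-7 microRNAs, whose targets include growth-promoting mRNAs. PAX2, a paired-domain transcription factor, and EYA1, a coactivator with phosphatase activity, act together in the nephric lineage of the embryo. GAL encodes the precursor of the neuropeptide galanin. PEG10 is a paternally expressed imprinted gene derived from a retrotransposon. Squamous carcinoma cells are known instead for basal keratins, desmosomal proteins and the transcription factor TP63.

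For LIN28B, sequences are shown because 1 listed row bears on its targets. MIRLET7A1HG (chromosome 9, 94166258 to 94200902), the host transcript of 3 let-7 precursors, was named after its values were seen. Its log2 fold change was 4.47 in the authors' deposited ALKBH5 table (adjusted p = 1.11e-07) and 2.84 in that for RBM33 (adjusted p = 0.000541). The 5′ arms of the microRNAs from it, from RefSeq (GRCh38.p14, chromosome 9, plus strand), are printed 5′ to 3′ with the seed, bases 2 to 8, in capitals. All 3 share the seed GAGGUAG.
hsa-let-7a-5p: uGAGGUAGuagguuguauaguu
hsa-let-7f-5p: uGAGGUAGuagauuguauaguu
hsa-let-7d-5p: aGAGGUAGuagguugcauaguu

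RefSeq gives LIN28B 2 start windows, each from 250 bases before to 50 after a start on the plus strand of chromosome 6 (GRCh38.p14). They lie at chr6:104940715-104941014 and chr6:104956857-104957156, both inside the interval listed for LIN28B in the authors' deposited tables. They are shown because they differ in base composition while the tables give 1 value for both starts, and CG dinucleotides are in capitals.
LIN28B first window: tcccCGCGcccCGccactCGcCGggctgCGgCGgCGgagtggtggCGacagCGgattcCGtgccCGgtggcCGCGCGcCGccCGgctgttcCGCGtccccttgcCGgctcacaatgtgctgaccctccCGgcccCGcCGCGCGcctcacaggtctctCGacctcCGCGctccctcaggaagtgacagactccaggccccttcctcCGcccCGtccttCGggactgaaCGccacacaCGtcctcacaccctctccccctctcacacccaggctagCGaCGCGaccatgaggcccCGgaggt
LIN28B second window: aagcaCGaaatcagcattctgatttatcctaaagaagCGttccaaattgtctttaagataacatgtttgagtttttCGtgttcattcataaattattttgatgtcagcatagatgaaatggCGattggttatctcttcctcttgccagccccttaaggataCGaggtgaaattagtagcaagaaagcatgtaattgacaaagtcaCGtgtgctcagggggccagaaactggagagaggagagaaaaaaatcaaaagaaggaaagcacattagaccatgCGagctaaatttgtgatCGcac

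The first window holds 37 CG dinucleotides and the second 8, against a median of 14 over 35116 promoter windows of 300 bases. The letters GGGCGG, searched on both strands, occur 2 times in the first window and not in the second, and 44.95% of all windows hold them. TATAAA, searched on both strands, is in neither, and 11.5% of all windows hold it. Of the 7 genes, LIN28B and PAX2 have windows in the RefSeq table.

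Abundance set the 7 genes far apart. To compare genes, the log2 of the listed gene length in kilobases was subtracted from the average log2 CPM, and the result is called abundance per kilobase. The listed length covers more than 1 transcript, so this scale is approximate. GAL, NEFL and NEFM stood above the 90th percentile of the 13210 protein-coding genes in both of the authors' deposited tables. LIN28B lay above the protein-coding median, EYA1 below it, and PAX2 and PEG10 under the 10th percentile.

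NEFL (ENSG00000277586, chromosome 8, 24950955 to 24956721, minus strand, hg38) had an average log2 CPM of 8.10 in the authors' deposited ALKBH5 table and 7.42 in that for RBM33. On the linear scale these correspond to 274 and 171 CPM in the authors' deposited tables. Its abundance per kilobase, 6.12 and 5.44, was at percentiles 97.4 and 95.3 of protein-coding genes in the authors' deposited tables. A light chain of axonal filaments was thus among the more abundant protein-coding mRNAs listed for both baits.

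NEFM (ENSG00000104722, chromosome 8, 24913758 to 24919098, plus strand) followed with an average log2 CPM of 7.72 and 7.18 in the authors' deposited ALKBH5 and RBM33 tables. Its abundance per kilobase was 5.86 and 5.31 there, at percentiles 96.8 and 94.8. NEFM and NEFL lie 31.9 kb apart on opposite strands. Their levels per kilobase differed by 0.27 and 0.13 on the log2 scale in the authors' deposited ALKBH5 and RBM33 tables.

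GAL (ENSG00000069482, chromosome 11, 68683779 to 68691175, plus strand) had an average log2 CPM of 6.62 and 6.35 in the authors' deposited ALKBH5 and RBM33 tables. With a listed length of 1300 bases, the shortest of the 7, it had the highest abundance per kilobase, 6.24 and 5.97 (percentiles 97.7 and 97.1 in the authors' deposited tables). Without the length its percentiles were 89.1 and 85.6, below those of NEFL and NEFM.

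LIN28B (ENSG00000187772, chromosome 6, 104936616 to 105083332, plus strand) was listed at an average log2 CPM of 5.78 and 6.39 in the authors' deposited ALKBH5 and RBM33 tables. Its abundance per kilobase was 3.21 (percentile 74.6) and 3.82 (percentile 83.1) in those tables. It ranked below NEFM by 2.64 and 1.49 log2 units and above EYA1 by 2.31 and 2.61 in the authors' deposited tables.

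EYA1 (ENSG00000104313, chromosome 8, 71197433 to 71592025, minus strand) had an average log2 CPM of 4.12 and 4.43 in the authors' deposited tables. Per kilobase, EYA1 stood at 0.90 and 1.21, at percentiles 27.7 and 33.5 in the authors' deposited ALKBH5 and RBM33 tables. Its listed length of 9322 bases is the longest of the 7, and without length its percentiles were 43.6 and 49.3.

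PAX2 (ENSG00000075891, chromosome 10, 100735603 to 100829944, plus strand) had an average log2 CPM of 1.83 and 1.85 in the authors' deposited tables, or 3.55 and 3.61 CPM. Its abundance per kilobase, -0.85 and -0.82, was at percentiles 7.77 and 8.92 there. PEG10 (ENSG00000242265, chromosome 7, 94656325 to 94669695, plus strand) was lower still, at an average log2 CPM of 0.13 and -0.89 in the authors' deposited tables. This is 1.09 and 0.541 CPM, near the lowest values of the authors' deposited tables, -1.43 and -1.29 on the log2 scale. PEG10 was at percentiles 0.833 and 0.106 of abundance per kilobase in the authors' deposited tables. High expression of PEG10 is known from embryonic kidney lines, so for PEG10, and in part for PAX2, the values go against the name of embryonic kidney line markers.

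The order GAL, NEFL, NEFM, LIN28B, EYA1, PAX2, PEG10 was the same in both of the authors' deposited tables. It spanned 8.85 log2 units per kilobase for ALKBH5 and 9.60 for RBM33. The tables give no spread of abundance over libraries, so whether GAL, NEFL and NEFM differ from each other was not tested.

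**Figure D1:**
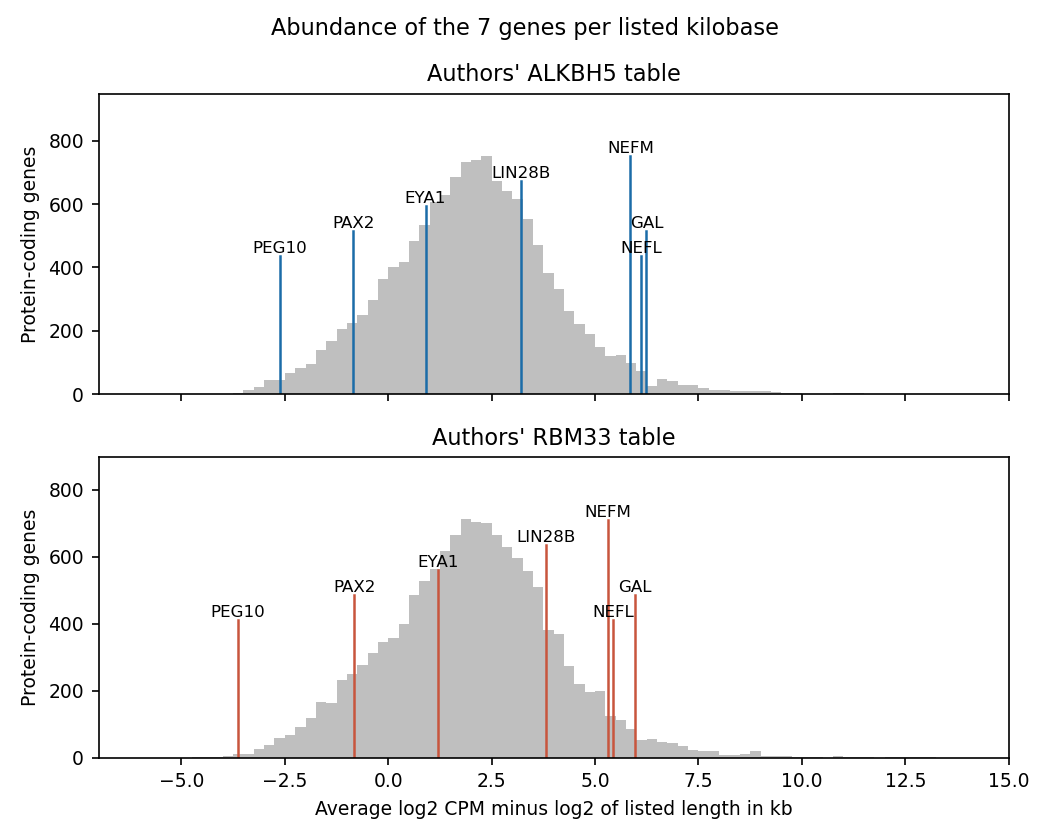
Histograms count protein-coding genes by average log2 CPM minus log2 of listed length in kb, in the authors' deposited ALKBH5 table (top) and RBM33 (bottom), and a vertical line marks each of the 7 genes. NEFL, NEFM and GAL sit between 5.31 and 6.24 in the right tail, and PEG10 at -2.61 and -3.63 in the left tail.

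The abundance of several of the 7 differed between the tables. Over protein-coding genes the average log2 CPM for RBM33 minus that for ALKBH5 had a median of 0.01, with 90% of genes between -0.64 and 0.56 in the authors' deposited tables. NEFL fell outside that range at -0.68 (percentile 4.19) and NEFM lay inside it at -0.54 (percentile 7.73) in the authors' deposited tables. LIN28B went the other way, at 0.61 (percentile 96.3), and PEG10 stood at -1.02 (percentile 0.893) in the authors' deposited tables. EYA1 was at 0.30, GAL at -0.27 and PAX2 at 0.03 in the authors' deposited tables. The neurofilament mRNAs were thus listed lower, and LIN28B mRNA higher, beside the RBM33 bait than beside ALKBH5. No source used here states a joint normalization of the tables, and these differences were not tested.

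The same values were also read for lists of markers. This is a description and not a check of the label. Genes and lists were both chosen with earlier results of these data known. Of 44 squamous and basal epithelial markers, 12 were listed in the authors' deposited tables and 32 had no row. TP63, KRT5 and KRT14 had no row, and none of the 10 keratins of the list did. Recomputing the Benjamini-Hochberg adjustment over the 16324 genes gave the deposited adjusted p-values in both of the authors' deposited tables, so genes without a row were not among those the authors adjusted over. Among protein-coding keratin genes, 4 were listed, KRT8 and KRT18 of simple epithelia, KRT10 and KRT222, and they were looked up after the list was found empty of keratins. KRT10, a keratin of stratified epithelium, had the highest abundance per kilobase of the 4, 4.04 and 4.66 (percentiles 86.4 and 91.1) in the authors' deposited ALKBH5 and RBM33 tables. Per kilobase it stood above LIN28B and every listed squamous marker in both, and its log2 fold changes were -3.06 and -2.90. Without length the order changed. The average log2 CPM of KRT10, 5.16 and 5.77, was below that of LIN28B (5.78 and 6.39) and KRT8 (6.31 and 6.43). For RBM33 it was also below the squamous marker PERP (5.88). KRT8 had an abundance per kilobase of 3.53 and 3.65, KRT18 of 3.88 and 3.77, and KRT222 of 0.23 and 0.37 in the authors' deposited tables.

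The most abundant squamous marker, PERP, a membrane protein of desmosomes, had 2.97 and 3.81 per kilobase in the authors' deposited tables. The desmosomal cadherin DSC3 had 2.11 and 2.51, and the transcription factor KLF5 1.85 and 1.94. PERP was negative at log2 fold changes of -1.44 and -1.48 and DSC3 at -0.95 and -0.59 in the authors' deposited tables. LAMA3, a laminin chain of the epithelial basement membrane, was positive at 2.788 and 2.103 in the authors' deposited tables, at 0.65 and 0.68 per kilobase. Of the 12 with a row, 1 was positive and 2 negative for ALKBH5, against 30.5% and 29.1% of all genes. For RBM33 these were 1 and 3, against 24.0% and 27.0% of all genes. ITGB4, an integrin of hemidesmosomes, stood at -0.15 (adjusted p = 0.857) and -1.63 (adjusted p = 0.0277) in the authors' deposited tables. NEFL, NEFM, GAL and LIN28B were each above all 12 listed squamous markers per kilobase in both of the authors' deposited tables. For RBM33, LIN28B and PERP were almost level, at 3.819 and 3.812. EYA1 was above 7 and 9 of them, PAX2 above 6 and 4, and PEG10 above 0 in the authors' deposited tables. The squamous markers with a row had a median percentile of 15.65 and 17.5 in the authors' deposited ALKBH5 and RBM33 tables. The cells were not identified here, and no sample other than those labelled UM-SCC-1 was compared.

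The 7 genes did not come with a full neuronal or renal set. Of 17 neuronal markers, 9 were listed in the authors' deposited tables, and STMN2, ELAVL4, DCX, SNAP25 and 4 others had no row. UCHL1, a neuronal ubiquitin hydrolase also found in tumour cells, had 5.72 and 5.23 per kilobase in the authors' deposited tables, at percentiles 96.4 and 94.5. The next neuronal markers per kilobase were the synaptic vesicle protein SYP (percentiles 36.05 and 48.1) and the adhesion molecule NCAM1 (percentiles 32.4 and 40.1). Per kilobase both were below the protein-coding median in both of the authors' deposited tables. Without length NCAM1 was above that median, at percentiles 58.9 and 66.4, and SYP below it, at 36.1 and 47.1. UCHL1 was negative, at log2 fold changes of -1.34 (edgeR adjusted p = 1.85e-06) and -1.095 (adjusted p = 0.000205) in the authors' deposited tables. MAP2 is a microtubule-associated protein of dendrites, at an average log2 CPM of 1.545 and 1.99 in the authors' deposited tables. It stood at a log2 fold change of 0.69 (adjusted p = 0.344) and 1.41 (adjusted p = 0.0276) there. Each of the authors' deposited tables called 2 of the 9 listed markers negative (UCHL1 and GAP43). The 1 positive gene was ENO2 for ALKBH5 and MAP2 for RBM33. Shares over all genes were 29.1% negative and 30.5% positive (ALKBH5), and 27.0% and 24.0% (RBM33). Of 12 markers of mature kidney epithelium 2 were listed, the endocytic receptors LRP2 (0.30 and 0.23) and CUBN (-2.31 and -2.13 per kilobase in the authors' deposited tables). Of 15 fibroblast and mesenchymal markers 11 were listed, led by SNAI2 (4.14 and 4.50), COL6A1 (3.22 and 2.42) and ZEB1 (2.53 and 2.67) in the authors' deposited tables. SNAI2 was negative at -0.71 and -0.88 and ZEB1 at -0.73 and -0.56 in the authors' deposited tables. COL6A1 was positive at 0.81 and 0.61, and COL1A1, a chain of type I collagen, at 1.908 and 1.365. Of the 11, the authors' deposited ALKBH5 table had 2 positive and 4 negative, against 30.5% and 29.1% of all genes. That for RBM33 had 2 and 2, against 24.0% and 27.0% of all genes.

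**Figure D2:**
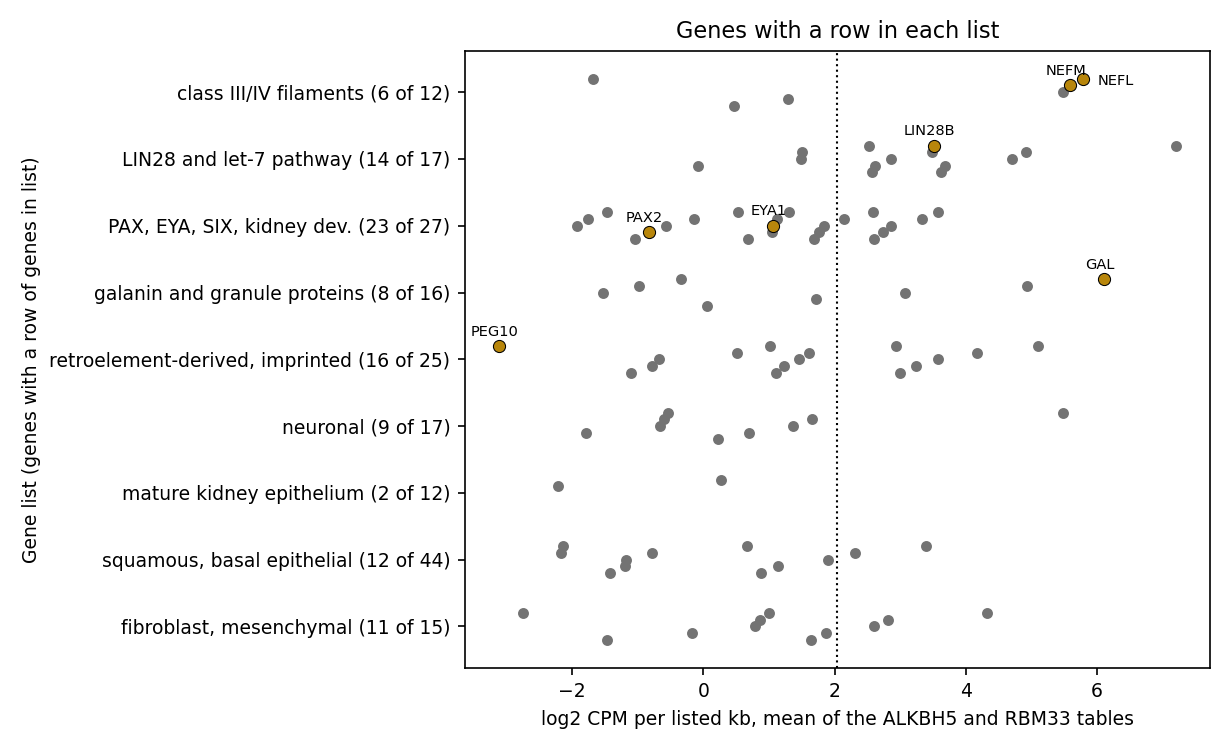
Each point is a gene with a row in both of the authors' deposited tables, placed by list (rows) and by log2 CPM per listed kb averaged over both (horizontal axis), and the dotted line is the protein-coding median. Gold points are the 7 genes, and the squamous list, with 12 of 44 genes listed, has no point as far right as LIN28B.

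The comparisons of the authors were then read for the 7 genes. A gene was called at an adjusted p under 0.05 in the authors' deposited table, from the authors' edgeR fit. For ALKBH5, 4 of the 7 were negative (NEFL, NEFM, LIN28B and GAL), 1 was positive (EYA1) and 2 were not called (PAX2 and PEG10). Over all genes of the authors' deposited ALKBH5 table, 29.1% were negative and 30.5% positive. For RBM33, the same 4 were negative, 0 were positive and 3 were not called, against 27.0% negative and 24.0% positive over all genes of the authors' deposited table. The median log2 fold change of the 7 was -1.11 for ALKBH5 and -1.13 for RBM33, against 0.03 and -0.02 over all genes in the authors' deposited tables. Nothing is read from these counts, since the choice of the genes used the same tables. Under other call rules the shares of all genes called in either direction were 48.0% and 37.6% (adjusted p under 0.01), 37.2% and 33.8% (at least 1 log2 unit), and 75.8% and 70.5% (genes of at least median abundance) in the authors' deposited ALKBH5 and RBM33 tables.

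The standard error given below is implied by the deposited values, as the size of the log2 fold change over the square root of F. NEFL had a log2 fold change of -1.90 (standard error 0.36, adjusted p = 0.00208) in the authors' deposited ALKBH5 table. It was -1.53 (standard error 0.15, adjusted p = 1.49e-05) in that for RBM33. NEFM stood at -1.91 (standard error 0.21, adjusted p = 5.36e-06) in the authors' deposited ALKBH5 table. For RBM33, NEFM stood at -1.19 (standard error 0.17, adjusted p = 0.000131) in the authors' deposited table. Both neurofilament mRNAs were thus negative for both baits, by 2.28 to 3.76 times on the linear scale.

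The error behind NEFL differed from that of the other 6 genes. The total degrees of freedom that F and p imply were 13.15 for LIN28B, EYA1, GAL, PAX2 and PEG10 in the authors' deposited ALKBH5 table, the highest value in that table. They were 12.67 for NEFM and 7.82 for NEFL in the authors' deposited ALKBH5 table. Among well-measured genes (F above 4, log2 CPM from 5 up), 53 of 4343 were below 8, or 1.22%. For RBM33 all 7 genes had 11.18, the highest value of the authors' deposited table. Lower degrees of freedom can mark a gene whose spread over libraries was unusual in the fit. Which library differed was not tested, since no value per library is given.

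LIN28B had a log2 fold change of -1.11 (standard error 0.17, adjusted p = 9.73e-05) in the authors' deposited ALKBH5 table. It was -0.9999 (standard error 0.17, adjusted p = 0.000594) in that for RBM33. GAL was at -1.12 (standard error 0.14, adjusted p = 1.65e-05) and -1.21 (standard error 0.17, adjusted p = 0.000121) in the authors' deposited tables. EYA1 was the positive gene, at 0.78 (standard error 0.20, adjusted p = 0.00463) in the authors' deposited ALKBH5 table. For RBM33 it stood at 0.22 (standard error 0.22, adjusted p = 0.44) in the authors' deposited table.

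PAX2 had 0.16 (standard error 0.47, adjusted p = 0.788) and 0.04 (standard error 0.50, adjusted p = 0.959) in the authors' deposited tables. PEG10 had 0.18 (standard error 0.75, adjusted p = 0.848) and -1.13 (standard error 1.47, adjusted p = 0.552) there. At the low abundance of both genes these errors are wide, and a change of 1 log2 unit in PEG10 was not detectable in either of the authors' deposited tables.

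The RBM33 log2 fold change minus the ALKBH5 one was 0.72 for NEFM (combined standard error 0.27) and 0.37 for NEFL (0.39) in the authors' deposited tables. It was -0.57 for EYA1 (0.30), 0.11 for LIN28B (0.25), -0.09 for GAL (0.22), -0.12 for PAX2 (0.69) and -1.32 for PEG10 (1.65) in the authors' deposited tables. The combined error assumes that the tables share no library, which no label states. No test of these differences was made, so EYA1, called for ALKBH5 and not for RBM33, is not shown to differ between the baits.

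**Figure D3:**
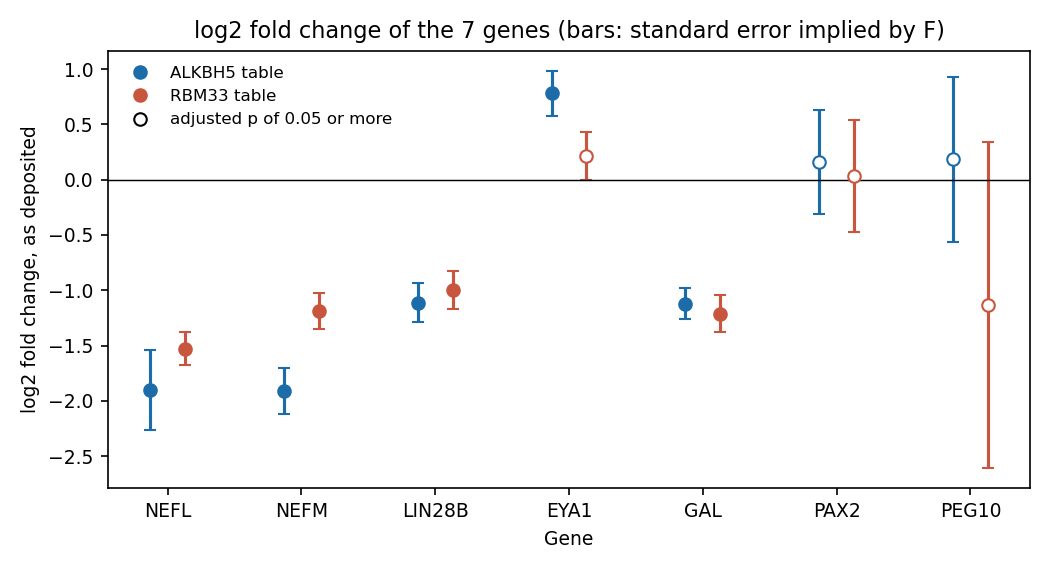
Points give the log2 fold change of each of the 7 genes in the authors' deposited tables for ALKBH5 (blue) and RBM33 (red), bars the standard error implied by F, and open points an adjusted p of 0.05 or more. NEFL, NEFM, LIN28B and GAL lie between -1.91 and -0.9999 in both, and the bars of PEG10 cross 0.

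Values in both tables followed the listed gene length, so each gene was also set beside protein-coding genes of like length, 10 classes of equal size. GAL belonged to the shortest class, whose median log2 fold change was -1.01 and -1.09 in the authors' deposited ALKBH5 and RBM33 tables. GAL differed from its class by -0.11 and -0.12, at percentiles 43.45 and 45.8 of the class in the authors' deposited tables. The negative value of GAL was thus that of a typical short gene. NEFL differed from its class by -1.63 and -1.19 (percentiles 1.97 and 6.60) and NEFM by -1.47 and -0.65 (percentiles 3.85 and 22.3) in the authors' deposited tables. LIN28B differed from its class by -1.16 and -0.95 (percentiles 10.1 and 13.2) in the authors' deposited tables. EYA1 differed from its class by 0.39 and -0.19 in the authors' deposited tables. PAX2 differed by 0.06 and -0.07 and PEG10 by 0.09 and -1.24, the last within its own error, in the authors' deposited tables.

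**Figure D4:**
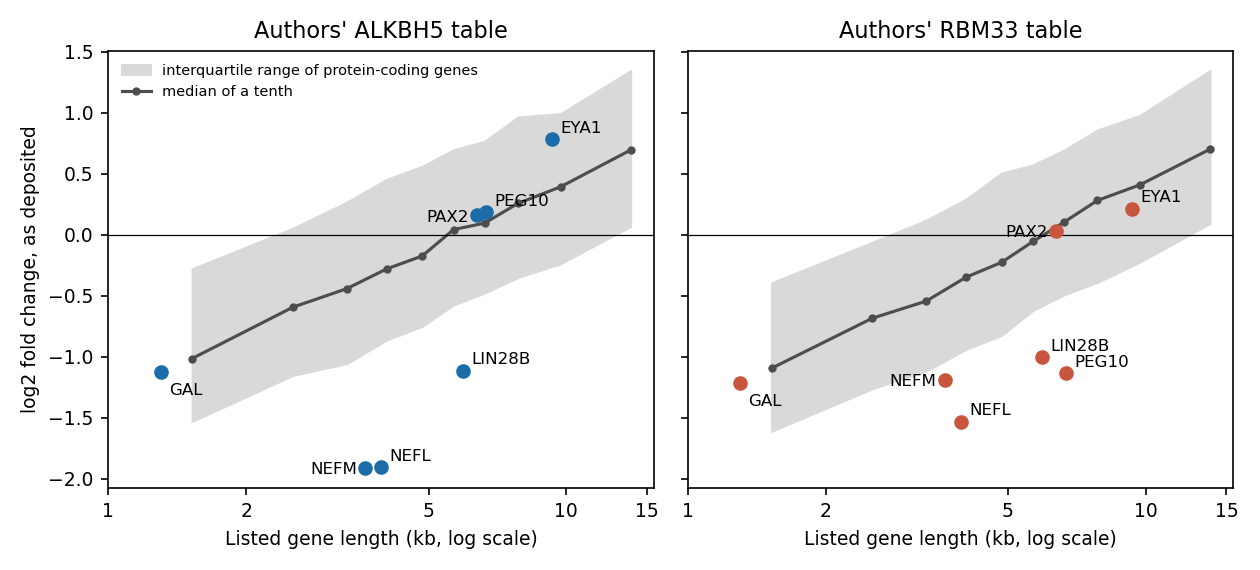
The horizontal axis is listed gene length in kb on a log scale and the vertical axis the deposited log2 fold change of the authors' tables for ALKBH5 (left) and RBM33 (right). The line joins the medians of 10 length classes of protein-coding genes, the band their interquartile range, and GAL lies close to the line while NEFL and LIN28B lie under the band in both panels.

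The relatives of the neurofilament genes were sparse. Of 12 genes of the class III and IV intermediate filament list, 6 were listed, and NEFH, the heavy neurofilament chain, and INA, alpha-internexin, had no row in the authors' deposited tables. Of the 6, NEFL and NEFM included, the authors' deposited ALKBH5 table had 5 negative and 1 positive, against 29.1% and 30.5% of all genes. That for RBM33 had 4 and 1, against 27.0% and 24.0% of all genes. The lists were chosen with earlier results of these data known, so nothing is read from their counts. VIM, the vimentin of mesenchymal and cultured cells, had 5.58 and 5.38 per kilobase, close to NEFL and NEFM, with log2 fold changes of -0.79 and -0.54 in the authors' deposited tables. NES, the nestin of neural progenitors, was positive at 1.64 and 1.39 in the authors' deposited tables. PRPH, peripherin, was at -3.38 (adjusted p = 0.00971) in the authors' deposited ALKBH5 table and -0.02 (adjusted p = 0.99) in the RBM33 one, at an average log2 CPM of -0.08 and 0.04.

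The LIN28 and let-7 list had 14 of 17 genes listed, and LIN28A, the paralogue of LIN28B, had no row. In the authors' deposited ALKBH5 table, 6 were positive and 4 negative, against 30.5% and 29.1% of all genes. The same counts, 6 and 4, held for RBM33, against 24.0% and 27.0% of all genes. Among let-7 targets, HMGA1, an architectural chromatin protein, was the most abundant of the list at 7.39 and 7.01 per kilobase, with log2 fold changes of -0.87 and -0.68 in the authors' deposited tables. HMGA2 stood at -0.52 and -0.96 in the authors' deposited tables. Signs differed within the list: ARID3B stood at 0.51 and 0.28, DICER1 at 0.76 and 0.96, and TRIM71, not called, at 0.07 and 0.44. The mRNA-binding proteins IGF2BP1 (4.99 and 4.86 per kilobase) and IGF2BP2 (4.83 and 4.59) followed in the authors' deposited tables. IGF2BP1 had log2 fold changes of -0.31 (adjusted p = 0.051) and 0.04 (adjusted p = 0.849) in the authors' deposited tables. The microRNA processing factor DGCR8 was positive at 2.19 and 1.70, and DIS3L2, the exonuclease that degrades uridylated let-7 precursors, at 1.13 and 0.87 in the authors' deposited tables.

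Of 27 genes of the kidney development list, which holds the PAX and EYA genes, 23 were listed, and PAX8 had no row in the authors' deposited tables. The authors' deposited ALKBH5 table had 8 of them positive and 4 negative, against 30.5% and 29.1% of all genes. That for RBM33 had 4 and 2, against 24.0% and 27.0% of all genes. EYA1 and PAX2 were not the leading members: SIX2, a factor of nephron progenitors, had 3.87 and 3.28 per kilobase and EYA3 had 3.27 and 3.38 in the authors' deposited tables. The homeobox gene HOXD11 had 2.82 and 2.89 per kilobase and was positive at 1.35 and 1.52 in the authors' deposited tables. SALL4, a zinc finger protein of stem cells, was positive at 2.41 and 2.39, and EMX2 negative at -1.53 and -1.49, in the authors' deposited tables. Other PAX genes were looked up after the list. PAX3 (1.48 and 1.77 per kilobase), PAX6 (1.15 and 0.87) and PAX9 (0.26 and -0.63) were above PAX2 in the authors' deposited tables. PAX1 (-1.40 and -1.24) was below PAX2 in both.

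Galanin receptors GALR1, GALR2 and GALR3 had no row in the authors' deposited tables, and 8 of 16 genes of that list were listed. Of the 8, the authors' deposited ALKBH5 table had 0 positive and 3 negative, against 30.5% and 29.1% of all genes. That for RBM33 had 1 and 4, against 24.0% and 27.0% of all genes. PCSK1N, an inhibitor of a prohormone convertase, had 4.98 and 4.88 per kilobase and was negative at -1.45 and -1.79 in the authors' deposited tables. The carboxypeptidase CPE, which trims peptide precursors, was negative at -0.80 and -1.28 in the authors' deposited tables. SCG5, a secretory granule protein, was at -0.07 (adjusted p = 0.922) in the authors' deposited ALKBH5 table and 1.83 (adjusted p = 0.0173) in the RBM33 one.

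Among retrotransposon-derived and imprinted genes, 16 of 25 were listed, and PEG10 was the least abundant of them per kilobase in both of the authors' deposited tables. The authors' deposited ALKBH5 table had 4 positive and 2 negative among them, against 30.5% and 29.1% of all genes. That for RBM33 had 3 and 2, against 24.0% and 27.0% of all genes. RTL8A, a gene of the same retrotransposon family, had 5.04 and 5.17 per kilobase in the authors' deposited tables, and PNMA1 had 4.06 and 4.28. RTL8C was positive at 1.48 and 1.30 and RTL5 at 1.65 and 1.23 in the authors' deposited tables. RTL8A was negative at -0.59 and -0.62, and RTL8B stood at 0.59 and 0.46. The RTL8 genes are near-identical copies, so the counting may have split their reads. PEG3, MEST, DLK1 and MEG3, other imprinted genes, had no row.

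Neighbouring rows were examined because the strand setting of the counting is not given in the sources used here. The minus-strand gene SGCE overlaps the start of PEG10 by 248 bases and is also imprinted. SGCE had an average log2 CPM of 3.51 and 3.68, above PEG10, and log2 fold changes of -0.26 and -0.29 in the authors' deposited tables (adjusted p = 0.329 and 0.377). The noncoding RNA AF106564.1 overlaps NEFM by 960 bases on the other strand, at an average log2 CPM of 1.14 and 0.96 in the authors' deposited tables, far below NEFM. No listed gene within 100 kb overlaps NEFL, LIN28B, GAL or PAX2, and EYA1 has 0 listed neighbours.

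Of the 4 listed genes near LIN28B, BVES and POPDC3 had the sign of LIN28B in both of the authors' deposited tables, and HACE1 and BVES-AS1 the other sign. HACE1, a ubiquitin ligase gene 76.7 kb away, was positive at 1.59 and 0.92 in the authors' deposited tables. BVES, the nearest at 13.5 kb, was at -1.04 (adjusted p = 0.00107) and -0.50 (adjusted p = 0.108), BVES-AS1 at 2.40 and 2.31, and POPDC3 at -2.05 and -1.74 in the authors' deposited tables. Near GAL, CPT1A stood at -0.37 and 0.04 and PPP6R3 at 0.21 and 0.06, none of them called, in the authors' deposited tables. TESMIN, 16.3 kb from GAL, was at -0.11 (adjusted p = 0.783) and -2.18 (adjusted p = 0.0221) in the authors' deposited tables. Near PAX2, SLF2 was positive at 0.76 and 0.79, and AL138762.1 stood at 0.79 and 0.89 without a call in the authors' deposited tables. CASD1, 99.3 kb from PEG10, stood at 0.75 and -0.04 without a call in the authors' deposited tables.

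Likeness to other genes was measured as the distance over 4 values, the log2 fold change and average log2 CPM of both of the authors' deposited tables. NEFL was nearest to TMA7 (0.28) and METAP2 (0.40), and NEFM to LRRC59 (0.36) and BCCIP (0.43). LIN28B was nearest to CAPZA1 (0.14) and DESI2 (0.14), and GAL to BCL2L2-PABPN1 (0.18) and WDR46 (0.20). EYA1 was nearest to ATG14 (0.18) and LTO1 (0.19), and PAX2 to DHRSX (0.24) and UQCRHL (0.24). PEG10 was nearest to LGALS1 (0.57) and MAGEA9 (0.60). The median distance to all protein-coding genes ranged from 2.64 for EYA1 to 7.09 for PEG10. The nearest genes lie below that median by construction, so nothing is read from this difference.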

How the data were processed

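Per the submitters' processing notes, the authors used edgeR 3.24.3, featureCounts and Subread 1.6.4, HISAT2 2.1.0 and cutadapt 1.18, with build hg38. Which annotation release, count filter and strand setting they chose is not given in the sources used here. The deposited columns hold, per the file headers, each gene's log2 fold change and average log2 CPM, the F score of the authors' fit, its p-value and an adjusted p-value. Groups were taken from sample titles. No count table was used, so the planned fallback, the authors' calls, applies.

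Here, abundance per kilobase, percentiles, length classes, neighbours within 100 kb and distances were computed with Python 3.11.15, pandas 2.3.3 and scipy 1.17.1. The routines for adjustment and degrees of freedom were tested on simulated data. The 7 genes and the 9 lists were chosen with earlier results of these data known. Named are the 7, the 3 most abundant and 2 most changed called genes of each list, neighbours, the 2 nearest genes, and TP63, KRT5 and KRT14. The other genes named, among them the keratins, PAX3, PAX6, NES, HMGA2 and MIRLET7A1HG, were chosen after their values were seen. Missing symbols were also searched under older symbols from RefSeq (GRCh38.p14), with 0 found.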

Additional observations from a re-analysis of the deposited data

How the results depend on the processing

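No paired analysis was possible because the tables hold no value per library, and for the same reason no library could be left out. Calls of the 7 genes were 4 negative for both baits at an adjusted p under 0.01. Of all genes, 48.0% for ALKBH5 and 37.6% for RBM33 were then called in either direction. With genes below the median abundance left out, 4 were again negative for both baits, but PAX2 and PEG10 fell below that median and were not tested. Of all genes kept under that rule, 75.8% and 70.5% were called in either direction. Centring on the protein-coding median and subtracting the median of like length shift the log2 fold change but give no new p, so they say nothing about the calls. After the subtraction GAL was at -0.11 for ALKBH5 and -0.12 for RBM33, within 1 standard error of 0 (0.14 and 0.17). With a minimum of 1 log2 unit, EYA1 was no longer called for ALKBH5 (0 positive), and LIN28B, just under the limit, left 3 negative for RBM33. Over all lists, 26 of the 101 listed genes were negative and 25 positive for ALKBH5, against 29.1% and 30.5% of all genes. For RBM33 these were 23 and 21, against 27.0% and 24.0% of all genes. With the minimum of 1 log2 unit, 12 were negative and 14 positive for ALKBH5, and 14 and 14 for RBM33. Under that rule 37.2% and 33.8% of all genes were called in either direction. An adjusted p under 0.01 left 21 negative and 21 positive for ALKBH5, and 15 and 14 for RBM33. Of all genes, 48.0% and 37.6% were then called in either direction. Among genes of at least median abundance, where fewer are tested, 22 were negative and 16 positive for ALKBH5, and 17 and 12 for RBM33. Of all such genes 75.8% and 70.5% were called in either direction. Subtraction of the median of like length turned EYA1 (-0.19) and PAX2 (-0.07) negative for RBM33, neither of which was called there. The median percentile of abundance of the 7, 74.55 and 83.12, was 78.01 and 85.62 without length.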

Other observations

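GAP43, a growth-associated protein of axons, had the largest negative values among the listed neuronal markers, -5.01 for ALKBH5 (edgeR adjusted p = 0.000417) and -6.58 for RBM33 (edgeR adjusted p = 0.0136) in the authors' deposited tables. Its average log2 CPM was 0.50 and 0.03 there, so few reads stand behind these values, and the implied standard errors were 0.94 and 1.87. CUBN, an endocytic receptor of the kidney proximal tubule, had the largest positive values of the marker lists, 3.38 and 2.99 (edgeR adjusted p = 0.000554 and 0.0013) in the authors' deposited tables.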
